A study of Homo sapiens with 29 samples.

Results

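The 49 genes described here encode proteins that copy DNA in S phase or prepare cells for it. They were chosen by symbol from the 38148 genes of the RNA table, and all 49 were found. In the table of anti-crotonyllysine reads, 63 of 49916 regions carried the symbol of 1 of these genes, for 35 of the 49. The study used HCT116 cells, a human colorectal carcinoma line. Cells received siRNA against DAXX at 35 nM or non-targeting siRNA at 25 nM, so that dose and target differed together. DAXX encodes a chaperone that deposits the histone variant H3.3. In each arm cells were given 10 mM crotonate, a short-chain fatty acid from which cells make the donor for lysine crotonylation (Kcr), or none. The exposure is 18 h in the series description and 48 h in the protocol of the samples.

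The RNA groups were DAXX siRNA with crotonate, non-targeting siRNA with crotonate, DAXX siRNA alone and non-targeting siRNA alone, with 4 libraries each. Chromatin immunoprecipitation with an antibody against Kcr on any protein gave 2 libraries for each siRNA with crotonate and 4 for each siRNA without it, beside 1 input library, which the labels assign to DAXX siRNA. All groups are 1 cell line. The labels do not say whether libraries came from separate cultures, so a p-value measures the spread between these libraries, which may be technical.

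As background, replication begins when the origin recognition complex, CDC6 and CDT1 load the MCM2 to MCM7 helicase onto DNA before S phase. CDC45 and the GINS complex then switch the helicase on, polymerase alpha with primase lays primers, and polymerases delta and epsilon extend them while the ring-shaped clamp PCNA, opened by replication factor C, holds them in place. Many of these genes are transcribed at the border of G1 and S phase under E2F factors, which cyclin E and its kinase release from the retinoblastoma protein. A rapidly growing line such as HCT116 expresses the whole set.

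The promoters show the sequence side of this link to E2F. RefSeq (GRCh38.p14) gave the 250 bases before the start for 42 of the 49 genes, and these were searched on both strands for the E2F letters TTTCGCGC, TTTGGCGC, TTTCCCGC and TTTGCCGC. They were present in 14 of 42 (33.3%), against 4.3% of 11406 promoters of genes tested here and 2.8% of 27305 RefSeq promoters. CCAAT stood in 54.8%, against 34.7% of promoters of tested genes and 33.0% of RefSeq promoters. The mitotic letters TTTGAA and TTCGAA, the cell cycle homology region, stood in 4.8% of the 42, against 9.7% and 14.6%. The median GC content was 68.0% in the 42 promoters and 64.8% in those of tested genes, so base composition differed too. Some of the matches overlap, since TTTGGCGC and TTTCGCGC share letters on opposite strands. The 4 sequences below, 5′ to 3′ on the gene's strand with E2F letters in capitals, are shown because they belong to genes with results described here (PCNA, E2F1 and RFC4) or hold the most matches (MCM6). A match is a description of letters and not of a bound site, and RFC4 has none in this window.
PCNA, chr20:5126623-5126872, minus strand: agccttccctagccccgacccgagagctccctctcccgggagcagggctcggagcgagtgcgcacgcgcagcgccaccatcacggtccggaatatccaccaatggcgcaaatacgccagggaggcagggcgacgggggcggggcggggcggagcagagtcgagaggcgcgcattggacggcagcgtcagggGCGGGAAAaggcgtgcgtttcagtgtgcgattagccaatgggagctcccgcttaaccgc
MCM6, chr2:135876444-135876693, minus strand: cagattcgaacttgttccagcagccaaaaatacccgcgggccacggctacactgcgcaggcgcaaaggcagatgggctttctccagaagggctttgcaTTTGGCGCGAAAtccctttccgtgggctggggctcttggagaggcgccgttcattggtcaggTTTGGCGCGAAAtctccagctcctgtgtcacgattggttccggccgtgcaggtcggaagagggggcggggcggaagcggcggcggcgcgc
E2F1, chr20:33686386-33686635, minus strand: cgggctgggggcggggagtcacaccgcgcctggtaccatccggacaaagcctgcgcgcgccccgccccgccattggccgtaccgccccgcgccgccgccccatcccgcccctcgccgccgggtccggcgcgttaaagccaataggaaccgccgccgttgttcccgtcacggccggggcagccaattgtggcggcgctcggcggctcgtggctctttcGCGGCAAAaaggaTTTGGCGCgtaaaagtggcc
RFC4, chr3:186806483-186806732, minus strand: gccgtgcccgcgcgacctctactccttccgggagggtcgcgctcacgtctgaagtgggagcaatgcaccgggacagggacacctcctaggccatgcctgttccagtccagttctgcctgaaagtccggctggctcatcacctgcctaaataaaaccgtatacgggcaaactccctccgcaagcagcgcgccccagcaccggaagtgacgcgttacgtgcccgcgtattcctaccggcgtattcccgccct

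RNA libraries held 35003617 to 55128007 reads in genes, the Kcr libraries 2226835 to 3639130 reads in regions, and the input 1719036. RNA values are RPM, which scales every library to the same total of reads and does not divide by gene length, so levels are compared between libraries and not between genes. All 49 genes passed the filter on low values (0.25 RPM in at least 4 libraries) with group-wide means of 21.0 to 605 RPM, and the fewest reads recovered for any of them in a library were 689. DAXX RNA was 18.8% of the non-targeting level with crotonate and 23.9% without. Of the 8 epithelial and colon markers, 7 had reads in all 16 libraries and CEACAM5 had none. Blood markers PTPRC, CD3E and HBB stayed at or near 0. The 5 fibroblast markers summed to 19.4 to 27.7 RPM with DAXX siRNA and crotonate, 18.2 to 23.2 RPM with non-targeting siRNA and crotonate, 12.1 to 19.4 RPM with DAXX siRNA and 11.4 to 21.5 RPM with non-targeting siRNA. COL1A1 made up most of these sums and DCN had no read, and their part in the results was not tested. A tested gene on the opposite strand overlapped 17 of the 49 genes, and RefSeq lists pseudogenes for 11. Within groups, 1 leading component held 56.5% of the variance, and non-targeting library 2 and DAXX siRNA with crotonate library 4 stood farthest out on it. Calls among the 49 genes that changed without those 2 libraries are given with and without them.

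In cells with non-targeting siRNA, MCM2 and MCM5, subunits of the replicative helicase, fell with crotonate. PRIM2, the large subunit of primase, rose. These were the 3 calls among 49, where a call is an adjusted p under 0.05 in limma across 17973 genes and the background was 15.4% of all genes tested (13.1% higher and 2.34% lower). The median log2 change was −0.08 over the 49 genes and 0.07 over all genes tested, and 42 of the 49 lay below that all-gene median. In 6 of the 49 every crotonate library was below every library without crotonate, and in 3 every one was above, against backgrounds of 4.11% and 16%. At an unadjusted p under 0.05 there were 9 lower and 3 higher, against 6.06% and 21.9% of all genes. In bulk RNA, fewer cells in S phase and less RNA per cell cannot be told apart.

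MCM5 (chr22:35400134-35425431) had 246, 274, 248 and 232 RPM with crotonate, against 322, 374, 299 and 287 RPM without it. Every crotonate library was below every library without crotonate, and the log2 change was −0.35 ± 0.09 (SE, n = 4 each, adjusted p = 0.00724). MCM2 (chr3:127598410-127622436) had 300, 316, 305 and 268 RPM with crotonate, against 386, 412, 340 and 331 RPM without. These groups did not overlap either, and the log2 change was −0.30 ± 0.08 (adjusted p = 0.00942). MCM2 shares 2331 bases with AC023593.1 on the opposite strand, which averaged 97.6 RPM, and the counted strand is not given in the sources used here.

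PRIM2 (chr6:57314805-57646850) moved the other way, with 65.5, 62.0, 62.7 and 58.4 RPM with crotonate, against 48.4, 41.8, 48.6 and 57.7 RPM without. The lowest crotonate library was just above the highest library without crotonate, and the log2 change was 0.35 ± 0.10 (adjusted p = 0.0267). RefSeq lists a pseudogene of PRIM2, so shared reads could add to its count. PRIM2 lost its call when library 1, 2 or 3 of either group was left out (adjusted p = 0.0505 to 0.0786), and under centring, quantile scaling and limma-voom (adjusted p = 0.0559 to 0.174). MCM2 and MCM5 kept theirs in every alternative tried. Without non-targeting library 2 and DAXX siRNA with crotonate library 4, MCM4 was also called lower, beside MCM2, MCM5 and PRIM2. Over all genes that setting called 2743 higher and 596 lower.

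By role, all 10 genes of the helicase and its loading had a log2 change below 0, with a median of −0.18 and a range of −0.35 to −0.07 (CDC6, which recruits the helicase). The 8 genes that activate the helicase or hold the fork together split evenly, 4 above and 4 below 0, from −0.17 for CDC45 to 0.23 for GINS4. Of 9 polymerase and primase genes, 7 were below 0 and PRIM2 was the exception that passed the test. The clamp, clamp loader and lagging-strand genes ranged from −0.14 for LIG1, which joins Okazaki fragments, to 0.15 for RFC5. None of the RPA genes, whose products coat single-stranded DNA, passed the test, with changes of −0.10 for RPA1 and 0.18 for RPA3.

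All 4 nucleotide supply genes lay between −0.16 (TYMS, which makes thymidylate) and −0.02 (RRM1), and none passed the test. Chromatin assembly and histone mRNA genes lay between −0.20 for CHAF1A, a subunit of the assembly factor CAF-1, and 0.05 for CHAF1B. Among the regulators, CCNE1 had a change of −0.13 and CCNE2 of 0.20, with neither past the test.

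**Figure D1:**
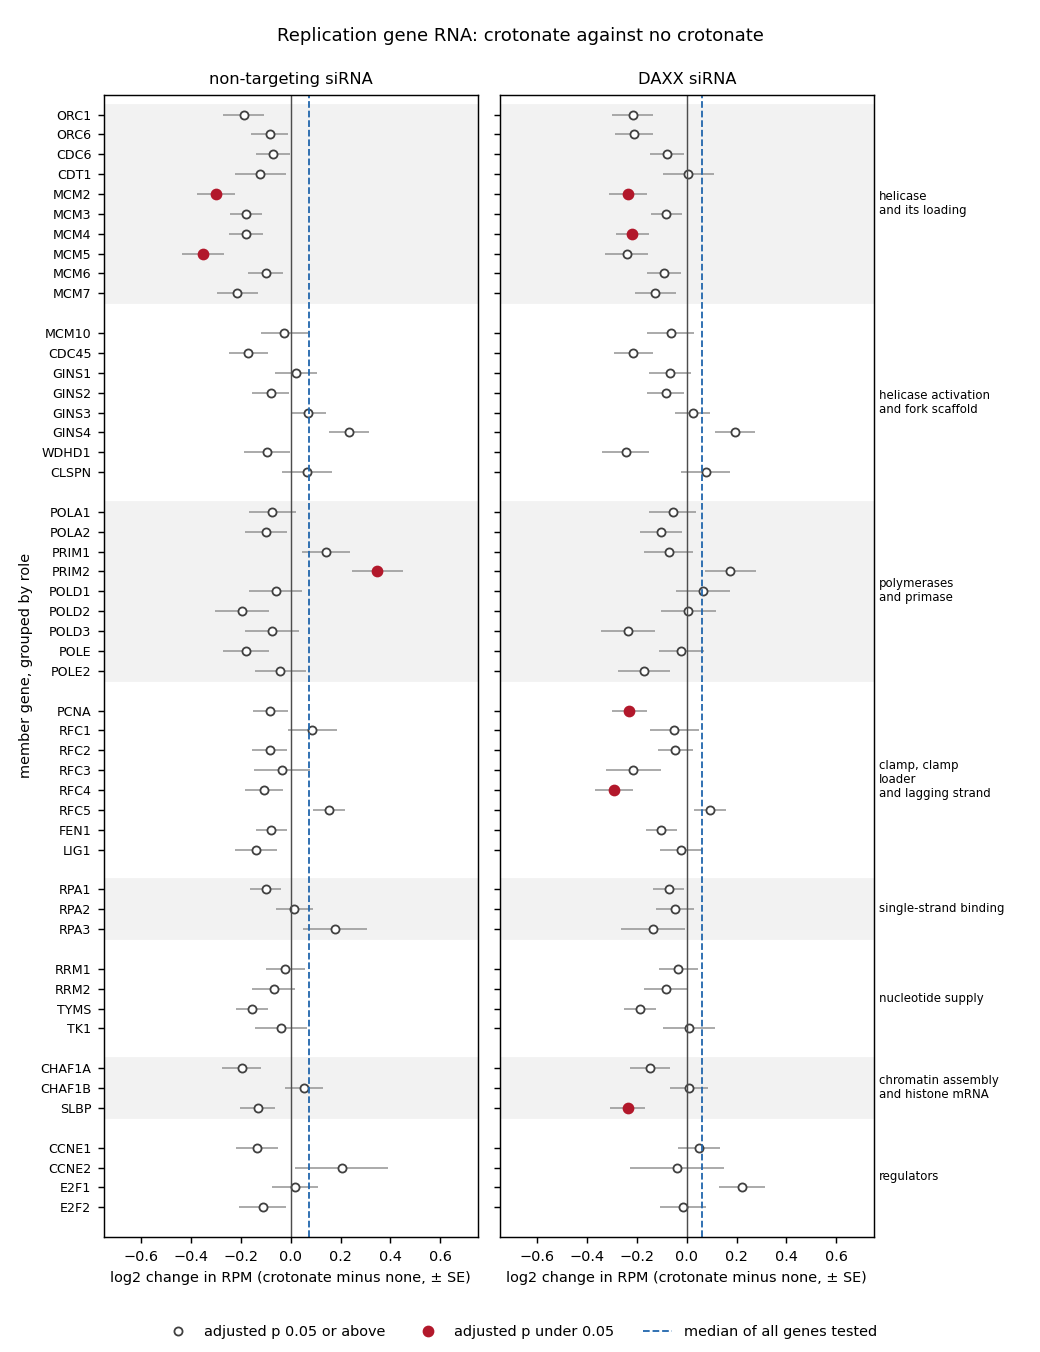
Log2 change in RPM of each of the 49 replication genes with crotonate minus without it (horizontal axis, ± SE), in rows grouped by role, for non-targeting siRNA on the left and DAXX siRNA on the right. Filled red points had an adjusted p under 0.05 and the dashed line marks the median of all genes tested. In both panels most open points lie left of the dashed line, and MCM2 is filled in both.

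The calls depended on scaling and on pairing. The crotonate arms share replicate numbers whose deviations correlated, though in some libraries less than with another number. With the number as a block 6 genes were called, 2 higher (PRIM2 and GINS4) and 4 lower (MCM2, MCM3, MCM5 and MCM7). Over all genes the block called 2632 higher and 516 lower. Centring each library on its median gene put the all-gene median at −0.055. It gave 1458 higher and 1701 lower calls over all genes, in place of 2352 higher and 420 lower, and called 16 of the 49 lower and none higher. Relative to the all-gene median of the uncentred fit, the median of the 49 was −0.15.

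In cells with DAXX siRNA, 5 genes of the clamp, the helicase and histone mRNA handling were lower with crotonate. RFC4, a clamp loader subunit, PCNA, MCM2, MCM4 and SLBP, which binds the stem-loop of replication-dependent histone mRNA, fell. These were 5 of 49, with none higher, against a background of 15.4% (13% higher and 2.41% lower). The median over the 49 was −0.07, against 0.06 over all genes tested, and 43 of the 49 lay below the all-gene median. In 12 of the 49 every crotonate library was below every library without crotonate, and in 1 every one was above, against backgrounds of 3.99% and 14.7%. At an unadjusted p under 0.05 there were 12 lower and 2 higher, against 6.39% and 21% of all genes. This comparison and that with non-targeting siRNA share no library.

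RFC4 (chr3:186789880-186807058) had 46.7, 52.7, 50.5 and 43.5 RPM with crotonate, against 60.3, 59.8, 58.8 and 57.5 RPM without it. The libraries with crotonate were all below those without, and the log2 change was −0.29 ± 0.08 (SE, n = 4 each, adjusted p = 0.0127). PCNA (chr20:5114953-5126626) had 259, 297, 309 and 275 RPM with crotonate, against 364, 324, 334 and 314 RPM without. The groups did not overlap, although 309 and 314 RPM lay close, and the log2 change was −0.23 ± 0.07 (adjusted p = 0.0295). RefSeq lists 4 PCNA pseudogenes, whose part in its count was not tested.

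SLBP (chr4:1692731-1712344) had 105, 119, 113 and 124 RPM with crotonate, against 142, 129, 130 and 143 RPM without. The groups were apart and the log2 change was −0.24 ± 0.07 (adjusted p = 0.026). MCM2 had 271, 275, 254 and 290 RPM with crotonate, against 321, 325, 309 and 329 RPM without, a log2 change of −0.24 ± 0.08 (adjusted p = 0.0389). MCM4 (chr8:47960185-47978160) had 377, 346, 339 and 321 RPM with crotonate, against 432, 389, 409 and 378 RPM without, a log2 change of −0.22 ± 0.07 (adjusted p = 0.0324). Every crotonate library was below every library without crotonate in both genes, for MCM4 with 377 and 378 RPM as the nearest values. MCM5 had a log2 change of −0.24 with an adjusted p of 0.0649, and its groups overlapped. It was called lower with the replicate number as a block, and also with centring and with limma-voom.

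**Figure D2:**
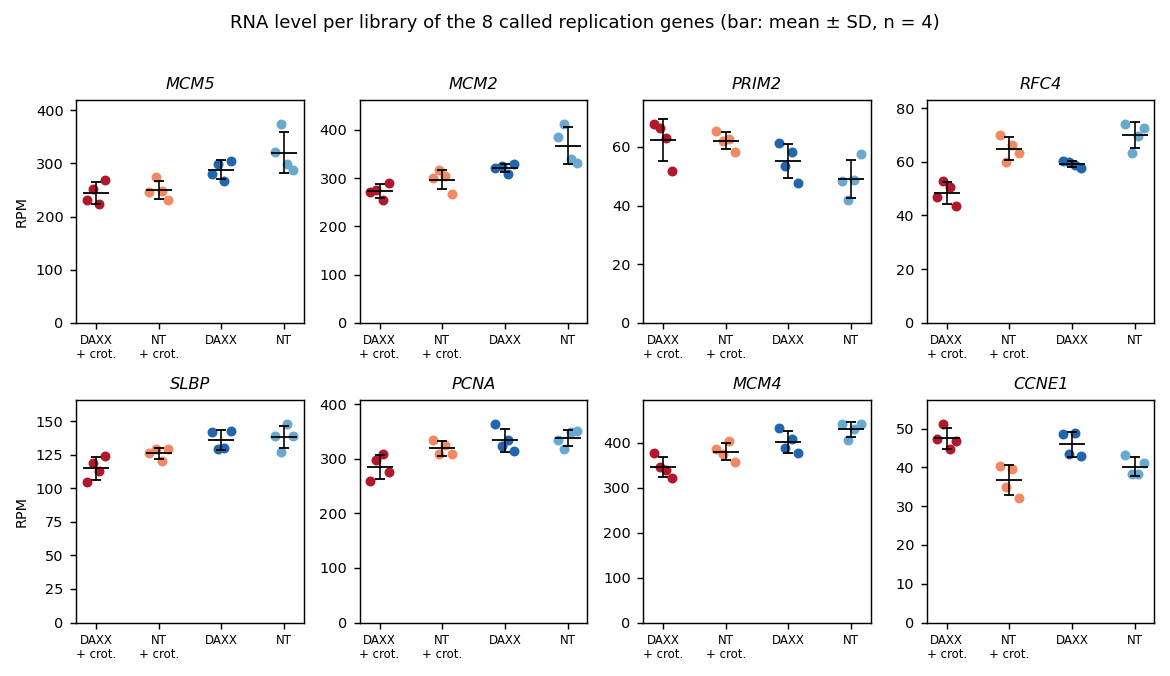
RPM in each of the 16 libraries (vertical axis, from 0) for the 8 genes that passed the test in any comparison, with groups in the order DAXX siRNA plus crotonate, non-targeting siRNA (NT) plus crotonate, DAXX siRNA, NT. Points are libraries and bars are means ± SD (n = 4). RFC4 is lowest in DAXX siRNA plus crotonate, at 43.5 to 52.7 RPM, and CCNE1 in that group spans 44.6 to 51.2 RPM against 32.1 to 40.3 RPM in NT plus crotonate.

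Of the 10 helicase and loading genes 9 had a log2 change below 0 (median −0.17), the exception being CDT1 at 0.01. Among the activation genes, WDHD1, an adaptor that ties the helicase to polymerase alpha, had the largest change at −0.25 (adjusted p = 0.0867), and GINS4 was at 0.19. Polymerase and primase genes ranged from −0.24 for POLD3 to 0.17 for PRIM2, with no call. The clamp and lagging-strand group gave 2 calls lower, RFC4 and PCNA, and its 8 members had a median of −0.08. The RPA genes lay between −0.14 and −0.05, nucleotide supply genes between −0.19 for TYMS and 0.01 for TK1. CHAF1A was at −0.15 and CHAF1B at 0.01, and the regulators between −0.04 for CCNE2 and 0.22 for E2F1, none past the test.

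Of these 5 genes, only RFC4 kept its call in every alternative tried. In counts, leaving out DAXX siRNA library 1 left 1 gene called, library 3 left 2 and library 4 left 3, and leaving out DAXX siRNA with crotonate library 1 left 2 and library 3 left 3, so MCM2, MCM4, PCNA and SLBP each lost the call in some of these (adjusted p = 0.0516 to 0.118). With the replicate number as a block, 6 were called lower, these 5 and MCM5, and with libraries of both compared groups only, 2 were. Over all genes the block called 2581 higher and 584 lower, and the compared groups only 2114 and 328. Centring left 14 called lower, with 1515 higher and 1488 lower calls over all genes in place of 2338 higher and 433 lower. Without non-targeting library 2 and DAXX siRNA with crotonate library 4, 8 were called, 1 higher (PRIM2) and 7 lower. In that setting 2799 higher and 746 lower were called over all 17973 genes, and MCM4 had an adjusted p of 0.0501.

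**Figure D3:**
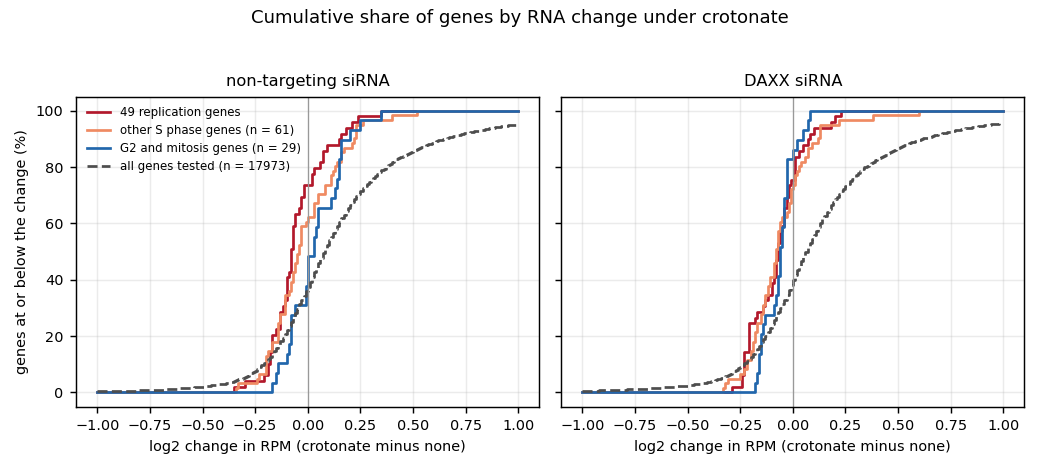
Share of genes (vertical axis, %) whose log2 change with crotonate minus without it is at or below the value on the horizontal axis, for non-targeting siRNA on the left and DAXX siRNA on the right. Red is the 49 replication genes, orange 61 other S phase genes, blue 29 G2 and mitosis genes, and the dashed grey line all 17973 genes tested. At a change of 0 the red curve has taken in 36 of 49 genes on the left and 37 of 49 on the right, and both red curves stand above the dashed one there.

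Without crotonate, DAXX siRNA gave no call among the 49 genes in limma, with a background of 0.406% of all genes, and limma-voom gave none either. At an unadjusted p under 0.05 there were 6 higher and 8 lower, against backgrounds of 6.09% each way over all genes. The median change was −0.02 over the 49 and −0.01 over all genes tested. The 2 genes with the smallest p each way are given next.

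RRM2, the regulated subunit of ribonucleotide reductase, had 486, 433, 446 and 403 RPM with DAXX siRNA, against 376, 302, 369 and 401 RPM with non-targeting siRNA. The groups came within 2 RPM of each other without overlapping, and the log2 change was 0.29 ± 0.09 (SE, n = 4 each, adjusted p = 0.182). PRIM1, the catalytic primase subunit, had 72.4, 71.0, 77.5 and 66.0 RPM with DAXX siRNA, against 54.8, 49.7, 65.8 and 62.9 RPM with the control, a log2 change of 0.31 ± 0.10 (adjusted p = 0.208). Non-targeting library 2, which stands apart, is lowest in both genes.

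RPA1, the largest subunit of the single-strand binding complex, had 229, 223, 218 and 207 RPM with DAXX siRNA, against 270, 266, 245 and 257 RPM with non-targeting siRNA. The groups did not overlap and the log2 change was −0.24 ± 0.06 (adjusted p = 0.113). RFC4 had 60.3, 59.8, 58.8 and 57.5 RPM, against 74.0, 63.1, 69.6 and 72.7 RPM, a log2 change of −0.24 ± 0.08 (adjusted p = 0.218). DAXX siRNA libraries were below control libraries in both, and neither passed the test.

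The widest change was that of CCNE2, a cyclin E, at 0.48 ± 0.19 with an adjusted p of 0.313 and overlapping groups. The regulators had a median of 0.15, from −0.05 for E2F2. Of the helicase and loading genes 9 of 10 lay below 0 (median −0.11), ORC6 being above. Without non-targeting library 2 and DAXX siRNA with crotonate library 4, RFC1, the large clamp loader subunit, was called lower. It was the 1 call among the 49 in that setting, which called 37 higher and 91 lower over all genes. RFC1 had 92.6 RPM in the non-targeting library left out, against 125 to 133 RPM in the other non-targeting libraries.

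With crotonate present, RFC4 fell and CCNE1 rose with DAXX siRNA relative to non-targeting siRNA. CCNE1 encodes cyclin E1, which drives entry into S phase. These were 2 calls of 49, 1 each way, against a background of 1.06% (0.389% higher and 0.668% lower). At an unadjusted p under 0.05 there were 3 higher and 5 lower, against 4.72% and 6.23% of all genes. The median over the 49 was −0.04, and −0.01 over all genes tested. This comparison shares its libraries with those of crotonate within each siRNA, so it is not a separate sample of RFC4.

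RFC4 had 46.7, 52.7, 50.5 and 43.5 RPM with DAXX siRNA and crotonate, against 70.1, 59.8, 66.4 and 63.1 RPM with non-targeting siRNA and crotonate. No libraries overlapped, the ratio was 0.745, and the log2 change was −0.43 ± 0.08 (SE, n = 4 each, adjusted p = 0.00619). This gene shares 18 bases with EIF4A2, which lies on the opposite strand and averaged 339 RPM. CCNE1 (chr19:29811991-29824312) had 47.2, 51.2, 44.6 and 46.9 RPM with DAXX siRNA, against 40.3, 35.0, 39.6 and 32.1 RPM with the control. Every DAXX siRNA library was above every control library, and the log2 change was 0.37 ± 0.08 (adjusted p = 0.0322).

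E2F1, the activating factor of this gene set, had 54.8, 59.6, 54.5 and 71.6 RPM with DAXX siRNA, against 48.5, 50.2, 49.2 and 45.0 RPM with the control. Its groups did not overlap, and its log2 change of 0.31 ± 0.09 had an adjusted p of 0.131. All 4 regulators lay above 0 (median 0.27), and all 3 RPA genes below 0, with RPA1 at −0.21 and RPA3 at −0.13. RFC4 kept its call in every alternative tried, while CCNE1 lost its call when DAXX siRNA library 1, 2 or 4, or control library 2, 3 or 4, was left out (adjusted p = 0.0508 to 0.152). Without non-targeting library 2 and DAXX siRNA with crotonate library 4, 4 were called, adding RRM2 higher and RFC1 lower. That setting called 179 higher and 231 lower over all genes.

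**Figure D4:**
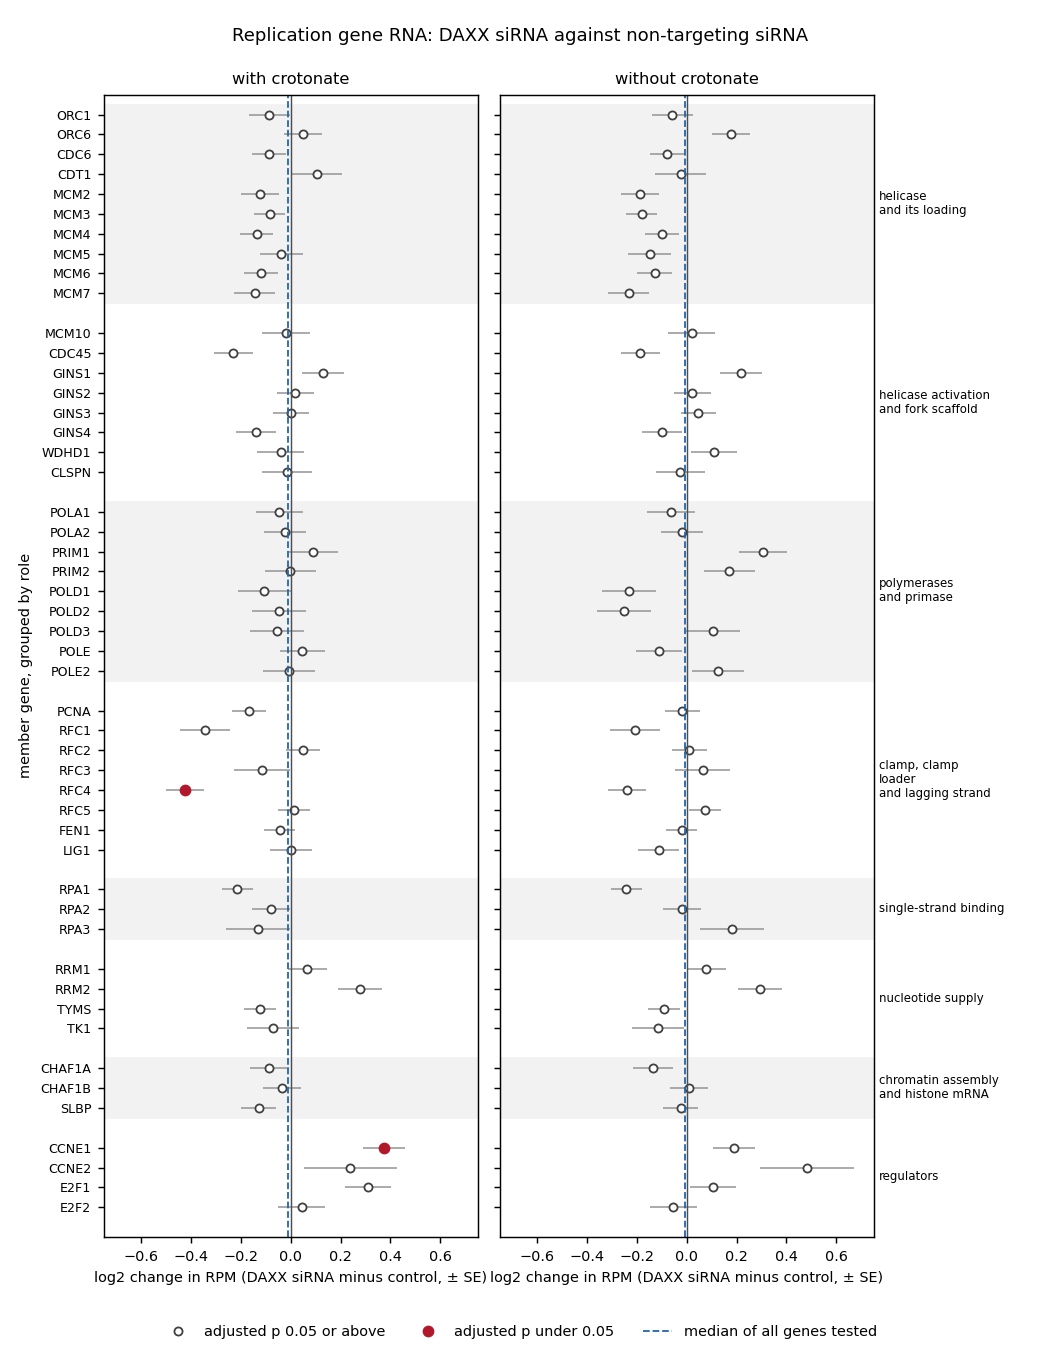
Log2 change in RPM of each of the 49 replication genes with DAXX siRNA minus non-targeting siRNA (horizontal axis, ± SE), in rows grouped by role, with crotonate on the left and without it on the right. Filled red points had an adjusted p under 0.05 and the dashed line marks the median of all genes tested. RFC4 at −0.43 and CCNE1 at 0.37 are the filled points on the left, and there are none on the right.

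The interaction of DAXX siRNA and crotonate, the siRNA effect with crotonate minus that without, was called for none of the 49 in limma or limma-voom, and none had an unadjusted p under 0.05. The same fit called 0 of 17973 genes, with 433 (2.41%) at an unadjusted p under 0.05. The changes ran from −0.31 ± 0.18 for RPA3 to 0.21 ± 0.13 for E2F1, and CCNE1 had 0.18 ± 0.12 and RFC4 −0.19 ± 0.11, each with an adjusted p of 0.995. RPA3 shares 77897 bases with UMAD1 on the opposite strand, which averaged 14.6 RPM. The lower RFC4 with DAXX siRNA in crotonate was not shown to differ from its value without crotonate.

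Of 61 other S phase genes tested, crotonate with non-targeting siRNA gave 2 higher, SAMHD1 (0.52 ± 0.09), a triphosphohydrolase of deoxynucleotides, and RRM2B (0.40 ± 0.12), a reductase subunit. It gave 2 lower, CDCA7 (−0.34 ± 0.08) and POLE3 (−0.34 ± 0.08), a histone-fold subunit of polymerase epsilon. The background was 13.1% higher and 2.34% lower. With DAXX siRNA, SAMHD1 was 1 call higher (0.60 ± 0.09), and CDCA7, POLE3 and UHRF1 were 3 lower, against 13% and 2.41% of all genes. Centring gave 1 higher and 12 lower with non-targeting siRNA and 1 higher and 15 lower with DAXX siRNA. Over all genes it gave 1458 higher and 1701 lower, and 1515 and 1488. Limma-voom gave 1 higher and 7 lower with either siRNA. Over all genes it gave 1831 higher and 848 lower with non-targeting siRNA, and 1711 and 821 with DAXX siRNA. SAMHD1 had 78.5, 70.4, 65.6 and 59.7 RPM with DAXX siRNA and crotonate, against 48.8, 40.6, 47.4 and 44.3 RPM with DAXX siRNA alone. UHRF1, a reader of hemimethylated DNA, fell with DAXX siRNA, with log2 changes of −0.63 ± 0.09 with crotonate and −0.55 ± 0.09 without. It was the 1 call of 61 in each comparison, against 1.06% of all genes with crotonate and 0.406% without.

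Genes of G2 and mitosis gave no call in the limma fit of the deposited values in any comparison (0 of 29). Over all genes that fit called 15.4% with crotonate for either siRNA. It called 1.06% for DAXX siRNA with crotonate, 0.406% without, and 0% for the interaction. With centring 4 of 29 were called lower with crotonate for each siRNA. Over all 17973 genes, 1701 were lower with non-targeting siRNA and 1488 with DAXX siRNA. Limma-voom called 3 of 29 lower with non-targeting siRNA, against 848 over all genes. The median change of the 29 with crotonate was 0.02 with non-targeting siRNA, and −0.06 with DAXX siRNA. With non-targeting siRNA it turned below 0 under centring (−0.11) and limma-voom (−0.04). In the DAXX siRNA comparisons their medians were 0.03 with crotonate and 0.09 without, with 6 of 29 higher at an unadjusted p under 0.05 without crotonate, against 6.09% of all genes. Their summed level was 4780 to 5210 RPM with DAXX siRNA and crotonate, 4900 to 5100 RPM with non-targeting siRNA and crotonate, 5130 to 5390 RPM with DAXX siRNA and 4510 to 5180 RPM with non-targeting siRNA. The 49 replication genes summed to 6280 to 6520 RPM with DAXX siRNA and crotonate, 6280 to 6770 RPM with non-targeting siRNA and crotonate, 6710 to 7000 RPM with DAXX siRNA and 6960 to 7360 RPM with non-targeting siRNA. The part of cell cycle position in these results was not tested.

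Anti-Kcr reads at the replication genes gave no called region in limma in any comparison. In that fit none of the 49916 regions was called (background 0%), while some alternative settings given below called regions outside these genes. At an unadjusted p under 0.05, crotonate with non-targeting siRNA had 17 of 63 regions lower and none higher, against backgrounds of 12.8% and 0.491%. With DAXX siRNA 9 were lower and none higher, against 7.92% and 0.579%. Of the 63 regions, 23 lay within 2 kb of the start of their gene. Start regions of genes at or above the median RNA level were lower in 34.6% with non-targeting siRNA and 20.4% with DAXX siRNA. The median change was −0.26 over the 63 and −0.19 over all regions with non-targeting siRNA, and −0.25 and −0.16 with DAXX siRNA. These values use the deposited scaling. Over all regions, the median with non-targeting siRNA was −0.02 with centring, 0.004 with quantile scaling and 0.01 with limma-voom. With DAXX siRNA it was −0.02, 0.001 and 0.007, so the all-region fall depended on scaling. The medians of the 63 under these scalings are not given here. Libraries numbered 1A and 1B of a siRNA differed by little more than the sampling noise and were counted as 1 sample, so n was 2 with crotonate and 3 without. The values are log2 reads after 1 scale factor per library, with the input in its own column and not subtracted.

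Symbols in the region table are a loose guide to starts, since 17 of the 49 genes had start regions solely under another symbol or none. By position, a criterion added after the data were seen, 40 of 49 genes (81.6%) had a region within 2 kb of their start, against 78.7% of tested genes at or above the median RNA level. Of the 43 regions involved, 40 were below 0 with crotonate in non-targeting siRNA cells on the deposited scaling. Of 6898 start regions of such expressed genes, 94.2% were. The medians were −0.34 and −0.35. At an unadjusted p under 0.05, 17 of the 43 were lower, against 34.6% of the 6898. With DAXX siRNA 42 of the 43 were below 0, against 92.8%, and 11 were lower at that p, against 20.4%. The medians there were −0.31 and −0.28. The signal of the 43 stood a median log2 of 1.04 above the input, against 0.90 over all regions.

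**Figure D5:**
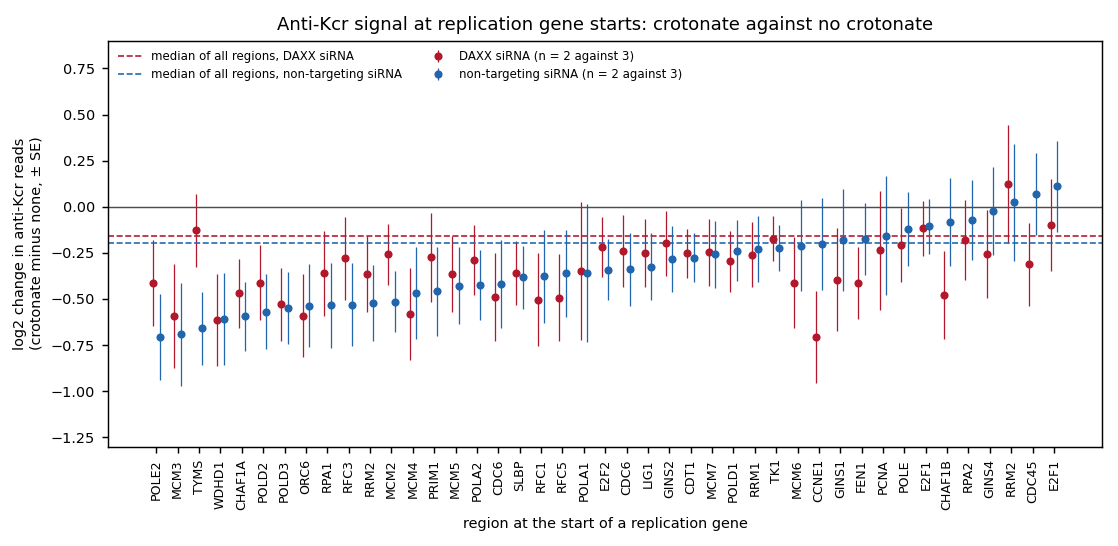
Log2 change in anti-Kcr reads, crotonate minus none (vertical axis, ± SE), at each of the 43 regions within 2 kb of the start of a replication gene, ordered by the value with non-targeting siRNA (blue), with DAXX siRNA in red (n = 2 against 3 samples). Dashed lines are medians of all regions. Most points lie below 0. Of the blue points 40 do, against 94.2% of 6898 start regions of expressed genes.

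The region at the start of MCM2 (chr3:127587601-127600050) spans 12450 bases and carries the symbol TPRA1. It had 217 and 215 scaled reads with crotonate and non-targeting siRNA, against 330, 293 and 304 without crotonate. The groups were apart and the log2 change was −0.51 ± 0.17 (SE, adjusted p = 0.246). For MCM5 (chr22:35397451-35402400) there were 104 and 83.9 scaled reads, against 140, 132 and 106, a change of −0.43 ± 0.21. SLBP (chr4:1709251-1721250) had 287 and 223 scaled reads, against 374, 298 and 322, a change of −0.38 ± 0.17. Both differences missed the test.

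The start region of PCNA (chr20:5125501-5126700) had 25.8 and 22.2 scaled reads with DAXX siRNA and crotonate, against 27.3, 36.5 and 22.4 with DAXX siRNA alone, and its groups overlapped. CCNE1 (chr19:29809501-29811750) had 43.8 and 28.7 scaled reads with DAXX siRNA and crotonate, against 66.5, 68.8 and 42.2 with DAXX siRNA alone, a change of −0.71 ± 0.25 (adjusted p = 0.519). MCM4, RRM2, PRIM1, WDHD1, RPA1 and E2F1 also had a start region, with log2 changes of −0.61 for WDHD1 to 0.11 for 1 of the E2F1 regions with non-targeting siRNA. RFC4, PRIM2, CCNE2 and RPA3 had none within 2 kb. Among regions under a replication gene symbol, the smallest p with crotonate in non-targeting siRNA cells belonged to 1 inside RRM2 (chr2:10140301-10143600), at −0.83 ± 0.24 with 25 to 73 reads per library and an adjusted p of 0.232.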

How the data were processed

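RNA-seq libraries (16) and anti-Kcr ChIP-seq libraries (12, with 1 input) of HCT116 cells were measured. Per the submitters' processing notes, reads were trimmed with Trim Galore 0.6.2 (RNA) or 0.6.5 (ChIP) and cutadapt 2.3, aligned with HISAT2 2.2.1 (RNA) or Bowtie2 (ChIP) to GRCh38, and regions were called with MACS. The strand counted, the annotation and the merging of regions are not given in these sources. The deposited RNA values are log2 RPM with 0 reads entered as 0.9 read, and the deposited ChIP values are log2 scaled reads. Undoing each library's factor gave whole reads for 100% of values (tolerance 0.01 read, wider at high counts).

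limma 3.58.1 in R 4.3.3 was fitted with a trended prior to all 16 RNA libraries (17973 of 38148 genes, those reaching 0.25 RPM in 4 or more libraries) and to all 49916 regions, with Benjamini-Hochberg adjustment over all features and calls at an adjusted p under 0.05. ChIP libraries 1A and 1B of a siRNA gave chi-square over degrees of freedom of 1.012 (DAXX) and 1.007 (non-targeting), against 1.035 to 1.383 in other pairs, and were averaged. SE is limma's and SD is over libraries. Tests were checked on simulated data.

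The labels number the replicates. Deviations of same-numbered RNA libraries correlated at 0.188 to 0.738 (DAXX siRNA with and without crotonate) and 0.107 to 0.654 (non-targeting). Differently numbered libraries reached 0.392 and 0.427. Some exceeded the same-numbered value, as non-targeting library 4 with crotonate library 3 (0.427) against library 4 (0.205). The numbers may pair the crotonate comparisons, but the correlations do not settle it. For the DAXX siRNA comparisons, numbers 1 to 4 correlated at 0.27, 0.319, 0.57 and −0.669 without crotonate. With crotonate they correlated at −0.0328, 0.107, 0.209 and −0.0346. Whether the numbers pair these comparisons was not settled either.

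Genes named are those called, where a comparison had no call the 2 of smallest p in each direction, and the largest change of each role group. The 49 genes, the other lists and the alternatives (scaling, filters, pseudocount 0.5, limma-voom with TMM, replicate block, groups compared only, leaving out libraries) were chosen with earlier results of these data known. Some lists may hold genes chosen with those results in view.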

Additional observations from a re-analysis of the deposited data

Results flagged for a closer look

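In 9 of 196 checks of the 4 libraries of a group, 1 library lay farther from the others than Dixon's test allows for 4 values, and chance flags about 1 in 20. POLD1, the catalytic subunit of polymerase delta, was highest in 3 of them: 125 RPM in DAXX siRNA with crotonate library 4 (others 98.6 to 102), 115 RPM in DAXX siRNA library 4 (others 95.5 to 98.6) and 153 RPM in non-targeting library 2 (others 106 to 112). RFC1, a clamp loader subunit, was lowest at 92.6 RPM in non-targeting library 2 (others 125 to 133). RFC3 was lowest at 51.2 RPM in DAXX siRNA library 4 (others 62.5 to 64.4), and POLD3 at 16.7 RPM in DAXX siRNA with crotonate library 4 (others 20.2 to 20.8).

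The other 3 were narrow in size. POLA2 was highest at 36.7 RPM in DAXX siRNA library 1 (others 34.4 to 34.6), FEN1 highest at 193 RPM in DAXX siRNA with crotonate library 2 (others 183 to 184), and WDHD1 lowest at 61.7 RPM in non-targeting siRNA with crotonate library 4 (others 63.9 to 64.3). Non-targeting library 2 and library 4 of both DAXX siRNA groups had the highest loadings on the leading within-group component (0.62, 0.42 with crotonate and 0.27 without), whose part in these values was not tested.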

How the results depend on the processing

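For crotonate with non-targeting siRNA, 3 of the 49 genes were called. The count was 16 with centring, 9 with limma-voom and 6 with the replicate block, and 2 to 4 with 1 library left out. Without non-targeting library 2 and DAXX siRNA with crotonate library 4, 1 was called higher and 3 lower. Over all genes, calls were 1458 higher and 1701 lower with centring, 1831 and 848 with limma-voom, and 2632 and 516 with the block. They were 2743 and 596 without those 2 libraries. The median change of the 49 was −0.21 with centring and −0.14 with limma-voom, and −0.10 to −0.05 with 1 library left out. For crotonate with DAXX siRNA, 5 were called. The count was 14 with centring, 11 with limma-voom, 3 with no filter and 2 with the groups compared only. It was 8 without non-targeting library 2 and DAXX siRNA with crotonate library 4 (an alternative added after seeing the data). Leaving out 1 library gave 1 to 5. Over all genes, calls were 1515 higher and 1488 lower with centring, 1711 and 821 with limma-voom, and 2097 and 337 with no filter. They were 2114 and 328 with the groups compared only, and 2799 and 746 without those 2 libraries. The median of the 49 was −0.19 with centring and −0.14 with limma-voom, and −0.10 to −0.05 with 1 library left out.

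For DAXX siRNA without crotonate the count was 0 in all alternatives except 1 without those 2 libraries. That setting called 37 higher and 91 lower over all genes. For DAXX siRNA with crotonate the count was 2, or 1 with the groups compared only (72 higher and 131 lower over all genes). It was 4 without those 2 libraries (179 and 231 over all genes) and 1 to 2 with 1 library left out. The replicate block left the counts of both DAXX siRNA comparisons unchanged at 0 and 2. Over all genes it called 39 higher and 78 lower without crotonate, and 98 and 155 with it. The interaction count and the ChIP counts for crotonate with either siRNA were 0 in the alternatives run. For DAXX siRNA against non-targeting siRNA, no region was called with 1A and 1B apart, centring, quantile scaling, limma-voom or the replicate block. For genes named for a call, a smallest p or the largest change of a role group, no log2 change reversed in the comparison concerned. Some other values crossed 0. The G2 and mitosis median for crotonate with non-targeting siRNA was 0.02, −0.11 with centring, −0.04 with limma-voom and 0.02 with quantile scaling. The activation genes above 0 there were 4, and 1 with centring. For crotonate with DAXX siRNA, 1 helicase and loading gene lay above 0, and 0 did with centring or limma-voom. The cause of these moves was not tested, apart from fewer samples in some fits. Depth limits the Kcr values, and the start region of PCNA held 22.2 to 36.5 scaled reads per sample with DAXX siRNA.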

Other observations

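Genes of G1 and cell cycle arrest gave calls in both directions with crotonate. Of 20 tested, 4 rose and 1 fell with DAXX siRNA, and 2 rose and 2 fell with non-targeting siRNA. Over every gene tested, 13% were called up and 2.41% down for DAXX siRNA, and 13.1% up and 2.34% down for non-targeting siRNA. With DAXX siRNA the counts were 3 higher and 2 lower under centring and under limma-voom, and 2 higher and 0 lower under quantile scaling. Over all genes these 3 settings called 1515 higher and 1488 lower, 1711 and 821, and 1448 and 852. With non-targeting siRNA the counts were 2 higher and 3 lower under centring, 2 and 2 under limma-voom, and 2 and 1 under quantile scaling. Over all genes they called 1458 higher and 1701 lower, 1831 and 848, and 1424 and 1010. CDKN2B, an inhibitor of the kinases CDK4 and CDK6, had 12.5, 12.2, 13.6 and 13.7 RPM with DAXX siRNA and crotonate, against 6.98, 8.47, 6.44 and 9.14 RPM with DAXX siRNA alone. It had 12.5, 12.9, 12.9 and 16.8 RPM with non-targeting siRNA and crotonate, against 7.06, 8.22, 7.43 and 7.33 RPM without crotonate. The groups did not overlap with either siRNA, and the log2 changes were 0.76 ± 0.12 and 0.87 ± 0.12 (SE, n = 4 each, limma adjusted p = 0.000167 and 3.94e-05).

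CDKN1C, another inhibitor, rose by 0.58 ± 0.16 on the log2 scale with DAXX siRNA and by 0.87 ± 0.16 with non-targeting siRNA. CDK4, whose kinase acts with cyclin D before S phase, had 178, 212, 205 and 218 RPM with DAXX siRNA and crotonate, against 236, 244, 236 and 241 RPM with DAXX siRNA alone, and its log2 change was −0.24 ± 0.08 (adjusted p = 0.0431). With non-targeting siRNA it was −0.25 ± 0.08 (adjusted p = 0.0354). With DAXX siRNA, CDKN2D (0.48 ± 0.12) and RBL2 (0.30 ± 0.10) also rose, and with non-targeting siRNA E2F4 fell (−0.32 ± 0.09). None of the 20 was called between the siRNAs, against 1.06% of all genes with crotonate and 0.406% without.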
